A study of Rattus norvegicus with 12 samples.

Results

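Potassium channel genes were followed in cultured rat cerebellar granule neurons over 3 h and 6 h. The genes were those whose single symbol in the array's probe table starts with Kcn, then letters and a number, with the A-type Kcnd genes and the Kcnip genes, which encode their KChIP partners, set aside. The rule used names and no measured value. It gave 68 genes in 16 subfamilies, out of 14217 named genes on the array, and these 68 genes have 110 probe sets. A single probe set stands for 43 of them and the other 25 have between them the rest, with at most 6 for a gene. The 2 sets left out, Kcnd and Kcnip, have 7 genes.

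Total RNA was hybridised to 12 arrays. Cultures in low potassium (LK) and cultures given GW5074 (GW) were each sampled at 3 h and at 6 h, with 3 arrays in each of these 4 groups. GW5074 is a small-molecule inhibitor of the kinase c-Raf. Arrays are named here by treatment, time and the letter A, B or C of their title, as in LK_6h A. The title of GW_6h A carries a suffix (e3_le1) that differs from the suffix of the other 11 titles (e1_le1), and no source used here explains it. The labels give neither the age nor the strain of the rats, nor the potassium level of the cultures given GW5074. Whether the letters are separate cultures is not stated either, so the spread that the p-values measure may be technical. No group is untreated or kept in raised potassium, so changes between the 2 times and the effect of age of the culture cannot be told apart.

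Potassium channels let potassium leave the cell along its gradient, which holds the resting potential near the potassium equilibrium and ends each action potential. Voltage-gated channels (Kcna to Kcnc, Kcnh and Kcnq) open on depolarisation, inward rectifiers (Kcnj) and leak channels of the tandem-pore family (Kcnk) act near rest, and calcium- or sodium-activated channels (Kcnma, Kcnn, Kcnt) follow ion entry. Cultured granule neurons are commonly kept alive in raised potassium, and loss of potassium from the cell is a known early step of neuronal apoptosis.

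Values are deposited intensities on a linear scale, each array having been scaled to the same trimmed mean. Log2 changes and folds are differences between group means of log2(quantile-normalised intensity + 16), so the fold of a dim probe set is understated. Many log2 changes come with their 95% interval or their Benjamini-Hochberg adjusted p from limma, and some are given alone. Limma was fitted on all 18625 probe sets kept by a filter on dim values, and a probe set past an adjusted p of 0.05 is called changed. Intensities of different probe sets are not comparable as levels. Of the 110 probe sets, 55 passed the filter, 50% against 60% of all probe sets on the array, and these 55 stand for 40 genes. The other 28 genes had no probe set that passed, and the brightest probe set of each averaged between 3.05 (Kcnj1) and 28.2 (Kcnk6) over the 12 arrays. Counts below are counts of tested probe sets. At the filter's edge, which lay at 26.6, Kcnk6 (28.2) and 1 Kcnq5 probe set (27.4) fell just below and Kcnk15 (28.0) and Kcnj13 (29.3) just above, since the filter reads the mean of log2 values.

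The 3-prime minus 5-prime log2 difference of actin ran from 0.844 to 1.06 in LK at 3 h, 0.866 to 1.36 in GW at 3 h, 0.971 to 1.02 in LK at 6 h and 1.06 to 1.16 in GW at 6 h, so the 2 treatments did not overlap at 6 h. The spike-in controls ran from 6.44 to 7.78 on the log2 scale over the 3 h arrays, and at 6 h from 6.69 to 7.05 in LK and from 6.52 to 6.56 in GW, again without overlap. Their part in the results was not tested. On the first principal component, scaled so that 3 h arrays average 0 and 6 h arrays 1, both 6 h arrays of letter B stood between the times (0.691 for LK and 0.628 for GW), while the other 6 h arrays reached at most 1.23. Results are therefore also given without these 2 arrays where that ends a call, turns a sign or moves the value of a gene the text turns on.

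Time was the comparison in which channel genes changed. In low potassium, 12 of the 55 tested probe sets, for 10 genes, were called between 3 h and 6 h, which is 21.8% where 22.6% of all tested probe sets were called. Of these, 5 rose (9.09%, against 11.6% of all) and 7 fell (12.7%, against 11.0%). In GW5074, 10 probe sets for 10 genes were called, 18.2% against 25.0% of all, with 8 up (14.5%, against 13.1%) and 2 down (3.64%, against 11.9%). In low potassium the share called was near that of all genes. The difference between the shares was not tested.

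The median change of the 55 probe sets was -0.00 on the log2 scale in low potassium and 0.13 in GW5074, beside -0.00 over all probe sets in both. The spread was wide: 21 of 55 (38.2%) moved by more than 0.5 in low potassium, where 28.3% of all did, and 14 of 55 (25.5%) in GW5074, where 29.1% did. In 38 of the 55 (69.1%) the 2 treatments gave the same sign, as did 79.8% of all tested probe sets. The groups of 3 arrays at 3 h and 6 h did not overlap for 19 probe sets in low potassium (34.5%, against 39.2% of all) and for 17 in GW5074 (30.9%, against 40.2%).

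Single arrays weighed on these counts. In low potassium the count of 12 fell to 7 without LK_3h A, 4 without LK_3h B, 6 without LK_6h A and 4 without LK_6h C, and was 16 without LK_6h B. In GW5074 the count of 10 fell to 5 without GW_3h A, GW_3h B or GW_6h A and to 6 without GW_6h C. Leaving out both 6 h arrays of letter B gave 16 in low potassium and 13 in GW5074. The shares of all tested probe sets called in these refits are not given here. These counts therefore do not show whether channel genes shifted more than other genes.

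**Figure D1:**
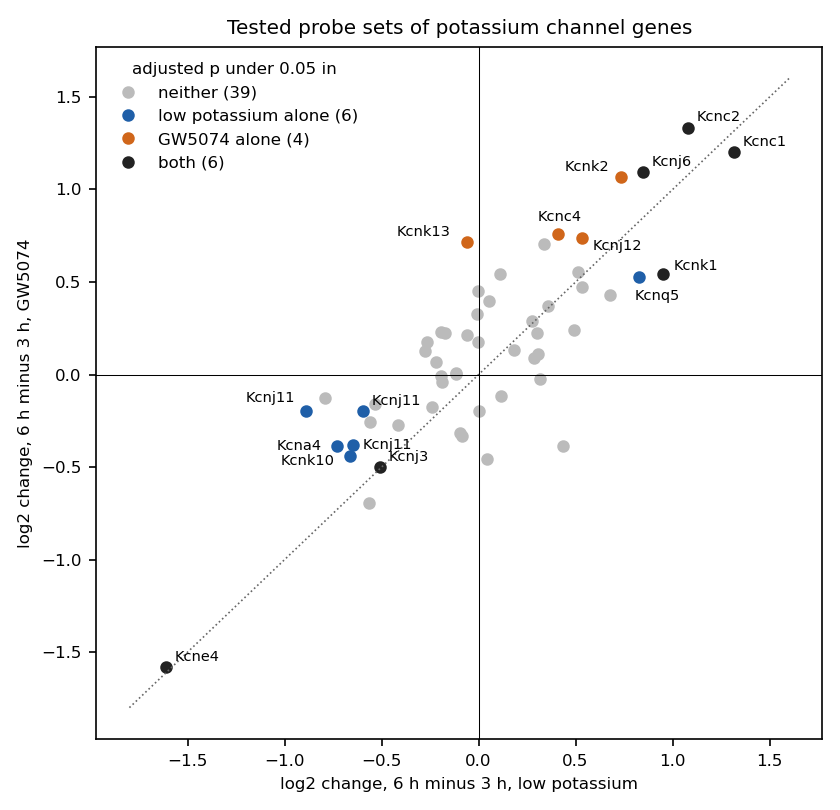
Log2 change from 3 h to 6 h in low potassium (horizontal axis) against the change in GW5074 (vertical axis) for the 55 tested probe sets, with the dotted line marking equal change. Black points are the 6 probe sets called in both treatments, blue the 6 called in low potassium alone and orange the 4 called in GW5074 alone, with Kcne4 at the lower left and the Kcnc genes and Kcnj6 at the upper right.

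Altogether 16 probe sets for 14 genes were called in at least 1 treatment. Called in both were 6 genes, which is 6 of the 12 probe sets called in low potassium and 6 of the 10 called in GW5074, each with 1 sign. These 6 are 10.9% of the 55, where 15.6% of all tested probe sets were called in both with 1 sign. Over all probe sets the shares were 69.2% of those called in low potassium and 62.5% of those called in GW5074. Kcnc1, Kcnc2, Kcnj6 and Kcnk1 rose, and Kcnj3 and Kcne4 fell. The 2 time comparisons share no array, but arrays of a letter at 1 time deviate together, so they are not independent. A call in 1 treatment alone is not a difference between treatments, since the difference itself, tested as an interaction, was not called for any channel probe set.

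Because these 6 genes moved in both treatments, the 250 bases before their annotated starts are shown for the 4 that have a window in the RefSeq promoter table (build GRCr8). Windows were found for 47 of the 68 channel genes. The windows are chr1:106038997-106039246 (plus strand) for Kcnc1, chr7:49587364-49587613 (plus strand) for Kcnc2, chr11:47778349-47778598 (minus strand) for Kcnj6 and chr9:87695798-87696047 (plus strand) for Kcne4. Each is printed from 5′ to 3′ on the gene's strand, and capitals mark matches on either strand to a GC box (GGGCGG) or an E-box (CACGTG).
Kcnc1: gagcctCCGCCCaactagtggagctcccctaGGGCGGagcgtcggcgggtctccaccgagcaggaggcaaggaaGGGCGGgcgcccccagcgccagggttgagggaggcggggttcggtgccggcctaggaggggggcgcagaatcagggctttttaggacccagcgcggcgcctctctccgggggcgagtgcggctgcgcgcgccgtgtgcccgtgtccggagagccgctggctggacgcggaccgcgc
Kcnc2: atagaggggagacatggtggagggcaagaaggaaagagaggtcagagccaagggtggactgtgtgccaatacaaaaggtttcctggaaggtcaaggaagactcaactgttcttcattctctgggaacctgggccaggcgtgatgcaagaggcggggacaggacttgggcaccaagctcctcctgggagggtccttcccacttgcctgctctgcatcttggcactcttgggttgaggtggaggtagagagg
Kcnj6: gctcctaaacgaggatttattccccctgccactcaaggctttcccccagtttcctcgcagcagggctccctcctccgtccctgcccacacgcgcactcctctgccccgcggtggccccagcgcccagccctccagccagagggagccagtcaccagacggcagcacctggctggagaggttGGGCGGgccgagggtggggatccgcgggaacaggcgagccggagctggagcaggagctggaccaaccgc
Kcne4: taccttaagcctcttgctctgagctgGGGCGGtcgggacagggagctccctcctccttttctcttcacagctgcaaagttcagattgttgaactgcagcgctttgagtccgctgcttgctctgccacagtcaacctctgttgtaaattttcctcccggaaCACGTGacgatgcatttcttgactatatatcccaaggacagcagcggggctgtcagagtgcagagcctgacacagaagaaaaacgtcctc

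The Kcnc1 window holds 3 GC boxes, the Kcnj6 and Kcne4 windows 1 each, and the Kcnc2 window none of the 6 motifs searched. Of all 33469 windows of the same length, 30.5% hold a GC box. The E-box, matched 1 time in the Kcne4 window, is in 5.59% of all windows. No match was found in the 4 windows to the CRE (TGACGTCA, 1.59% of all windows), the AP-1 site (TGANTCA, 6.34%), the NRF1 site (3.75%) or the forkhead site (GTAAACA, 3.21%), which says only that these letters are not in these windows. The GC content was 74.4% for Kcnc1, 56% for Kcnc2, 69.2% for Kcnj6 and 52.4% for Kcne4, beside a median of 51.2% over all windows.

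Among voltage-gated pore genes, the Kcnc subfamily moved together. Its channels open and close fast and let neurons fire at high rates. All 3 of its genes with a tested probe set, Kcnc1, Kcnc2 and Kcnc4, rose from 3 h to 6 h in GW5074 and Kcnc1 and Kcnc2 also in low potassium, with a median log2 change of 1.08 in low potassium and 1.20 in GW5074. The subfamily has 9 probe sets and 3 passed the filter. Of all tested probe sets, 11.6% rose in low potassium and 13.1% in GW5074.

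Kcnc1 read 92.6, 148 and 182 in LK at 3 h (letters A, B and C) and 376, 229 and 604 in LK at 6 h. In GW5074 it read 104, 164 and 295 at 3 h and 391, 293 and 747 at 6 h. Letter C was the highest array of every group, the times did not overlap in low potassium, and in GW5074 the lowest 6 h array lay just below the highest 3 h array. The rise was 2.49-fold in low potassium (log2 1.32, 95% interval 0.46 to 2.17, limma adjusted p = 0.0294) and 2.30-fold in GW5074 (log2 1.20, 0.35 to 2.05, adjusted p = 0.0397).

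The Kcnc1 calls ended when single arrays were left out. In low potassium the adjusted p was 0.114 without LK_3h A, 0.0727 without LK_3h B, 0.0794 without LK_6h A and 0.134 without LK_6h C. In GW5074 it was 0.16 without GW_3h A, 0.108 without GW_3h B, 0.0803 without GW_6h A, 0.171 without GW_6h C, 0.0535 without LK_3h B and 0.0526 without LK_6h A. It was also 0.0618 with no filter and 0.057 without the variance trend in GW5074. Over all alternatives the log2 change ran from 0.988 to 1.66 in low potassium and from 0.830 to 1.56 in GW5074.

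Kcnc2, measured by 1 tested probe set of 6, read 23.5, 35.8 and 60.9 in LK at 3 h and 122, 69.2 and 111 in LK at 6 h. In GW5074 it read 20.5, 32.0 and 44.4 at 3 h and 109, 80.3 and 126 at 6 h. Every 6 h array was above every 3 h array of its treatment. It rose 2.11-fold in low potassium (log2 1.08, 0.50 to 1.66, adjusted p = 0.0122) and 2.52-fold in GW5074 (log2 1.33, 0.76 to 1.91, adjusted p = 0.00352). In low potassium the adjusted p lay between 0.0501 and 0.0559 without LK_3h A, LK_3h B, LK_6h A or LK_6h C.

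Kcnc4 read 79.3, 61.7 and 107 in GW at 3 h and 157, 101 and 225 in GW at 6 h, and 89.6, 92.5 and 109 against 134, 117 and 171 in low potassium. The times overlapped by 1 array in GW5074 and not in low potassium. The change was 0.76 in GW5074 (adjusted p = 0.0337) and 0.41 in low potassium (adjusted p = 0.238). Its call ended with no filter (adjusted p = 0.0578) and without GW_3h A (0.0755), GW_3h B (0.144), GW_6h A (0.0932) or GW_6h C (0.154).

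Kcna genes encode delayed and inactivating channels of axons and terminals. Of the 5 tested Kcna probe sets, Kcna4, an inactivating channel, was the 1 called. It read 142, 129 and 190 in LK at 3 h and 83.8, 90.6 and 94.6 in LK at 6 h, and the times did not overlap. It fell by 0.73 in low potassium (-1.08 to -0.38, adjusted p = 0.00675). In GW5074 it read 136, 152 and 144 at 3 h and 108, 133 and 94.1 at 6 h, again without overlap, a change of -0.39 (adjusted p = 0.0977).

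Kcna1 and Kcna2, the low-threshold channels of granule and basket cell axons, were not called. Kcna1 averaged 215 ± 72.1 (SD, n = 3) in LK and 201 ± 57.8 in GW at 3 h, and 269 ± 8.58 and 223 ± 30.8 at 6 h, with log2 changes of 0.28 in low potassium and 0.09 in GW5074. Kcna2 averaged 403 ± 63.9 and 429 ± 112 at 3 h and 500 ± 63.2 and 535 ± 69.6 at 6 h, with changes of 0.27 and 0.29. In GW5074 the Kcna2 change passed the threshold without GW_3h C (log2 0.49, adjusted p = 0.0451) and was 0.16 without GW_3h A. The Kcna1 change in low potassium ran from 0.08 to 0.51 over the alternatives. The 2 tested Kcna6 probe sets differed in sign from 3 h to 6 h in low potassium, at 0.18 and -0.26.

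Of the Kcnq genes, Kcnq3 and Kcnq5 encode subunits of the slow M-type channels that damp repetitive firing. Kcnq5 was measured by 1 tested probe set of 3, and its other probe sets did not pass the filter. It read 133, 71.3 and 55.3 in LK at 3 h and 178, 154 and 155 in LK at 6 h. In GW5074 it read 137, 91.0 and 83.2 at 3 h and 172, 149 and 159 at 6 h. All 6 h arrays were above all 3 h arrays of their treatment. It rose 1.77-fold in low potassium (log2 0.83, adjusted p = 0.0286) and its change in GW5074 was 0.53 (adjusted p = 0.135). The call ended without LK_3h B (adjusted p = 0.111), LK_3h C (0.11), LK_6h A (0.0919) or LK_6h C (0.0675). Kcnq3, its partner in M-channels, did not pass the filter (mean 17.6). Kcnq1, the other tested gene of the subfamily, was not called. It changed by 0.05 in low potassium and by -0.46 in GW5074 (adjusted p = 0.900 and 0.129), and its times did not overlap in GW5074.

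Among the Kcnh genes, 4 of 8 passed the filter and none was called in either treatment. Kcnh2, the ERG channel, averaged 52.0 ± 7.93 in LK and 61.7 ± 12.0 in GW at 3 h and 72.0 ± 10.7 and 83.8 ± 2.24 at 6 h. Its times did not overlap in either treatment, and the changes were 0.36 (adjusted p = 0.122) and 0.37 (adjusted p = 0.11). Kcnh1, Kcnh3 and Kcnh6 changed by 0.06, -0.06 and 0.34 in low potassium and by 0.40, 0.21 and 0.70 in GW5074, with adjusted p from 0.142 to 0.896.

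Of the silent subunits, which alter other voltage-gated channels and form no channel alone, 1 Kcng and 1 Kcnv gene passed the filter and no Kcns gene did. Kcng2 changed by 0.51 in low potassium and 0.55 in GW5074 (adjusted p = 0.194 and 0.157). Kcnv1 read 48.8, 36.4 and 37.2 in LK at 3 h and 19.4, 18.1 and 27.3 in LK at 6 h, which did not overlap, and the change was -0.56 (adjusted p = 0.2). Kcnb2, a delayed rectifier pore, did not pass (mean 10.2).

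**Figure D2:**
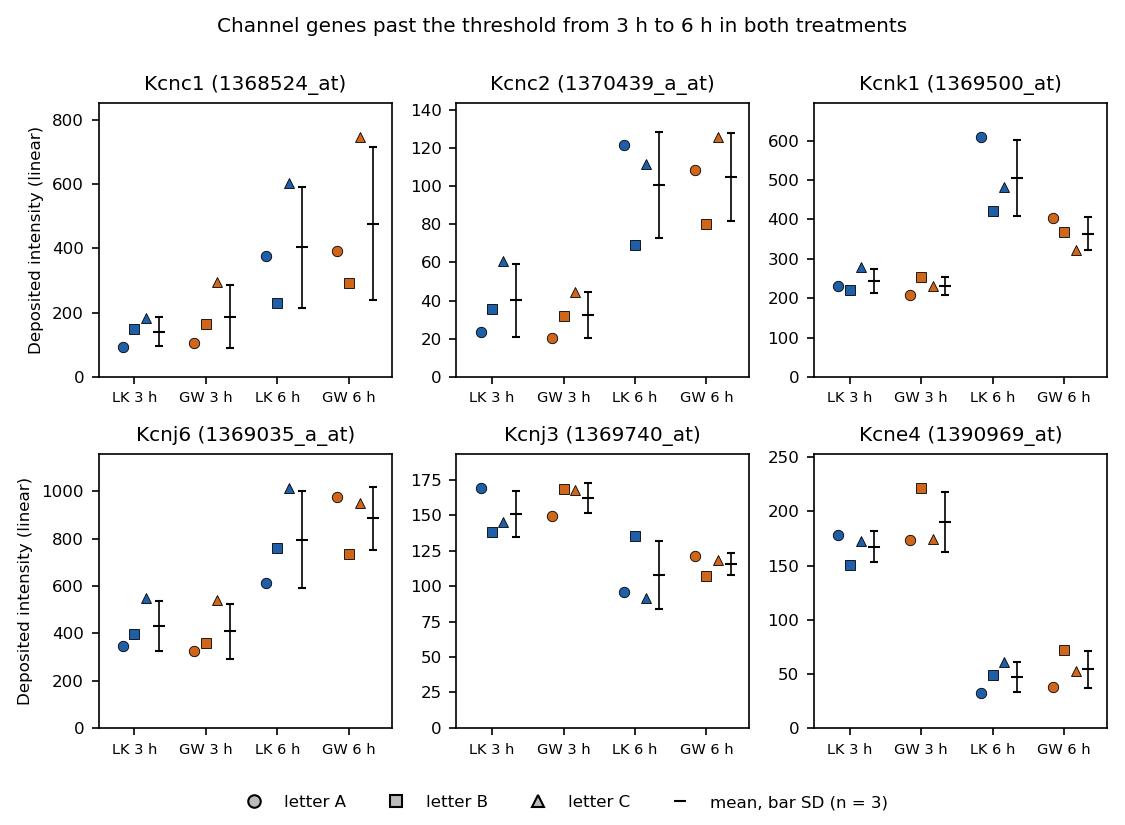
Deposited intensity (vertical axis, linear, from 0) of the 6 channel genes called from 3 h to 6 h in both treatments, 1 panel per probe set, for LK and GW at 3 h and 6 h. Points are arrays (circle, square and triangle for letters A, B and C) and the bar beside each group is the mean with its SD (n = 3): Kcnc1, Kcnc2, Kcnj6 and Kcnk1 are higher and Kcnj3 and Kcne4 lower at 6 h.

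Accessory subunits held the largest fold among the calls. Kcne4, a small membrane subunit that inhibits Kcnq1 channels, read 178, 151 and 173 in LK at 3 h and 32.5, 48.6 and 60.5 in LK at 6 h. In GW5074 it read 174, 222 and 174 at 3 h and 38.1, 72.4 and 52.3 at 6 h. Every 6 h array was far below every 3 h array in both treatments. Kcne4 fell 3.06-fold in low potassium (log2 -1.61, -2.06 to -1.16, adjusted p = 4.41e-04) and 2.99-fold in GW5074 (log2 -1.58, -2.03 to -1.13, adjusted p = 3.39e-04). Both falls kept an adjusted p of at most 0.00389 in all 19 alternatives run for each.

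Kcne2, of the same family, was not called, and its 2 tested probe sets changed by 0.32 and 0.44 in low potassium and by -0.02 and -0.38 in GW5074. The Kcnab genes encode the cytoplasmic beta subunits of Kcna channels. None of their 4 tested probe sets was called, and their median changes were -0.19 in low potassium and 0.07 in GW5074. Kcnab2 averaged 209 ± 27.2 in LK and 182 ± 6.02 in GW at 3 h and 189 ± 13.8 and 230 ± 29.4 at 6 h.

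Calcium- and sodium-activated channels were not called in either treatment. Kcnma1, the BK channel pore, averaged 54.9 ± 6.01 in LK and 58.7 ± 10.3 in GW at 3 h and 77.1 ± 32.8 and 71.1 ± 16.8 at 6 h, with changes of 0.30 and 0.23. Kcnmb4, its neuronal beta subunit, changed by -0.17 and 0.23. Kcnn1, a small-conductance channel, read 61.5, 57.6 and 25.6 in LK at 3 h and 7.70, 50.3 and 12.4 in LK at 6 h. Letter B stood apart from A and C at 6 h, and the change was -0.79 (-1.55 to -0.04, adjusted p = 0.12). The 3 probe sets of Kcnt1, the sodium-activated channel, changed by -0.01 to 0.30 in low potassium.

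**Figure D3:**
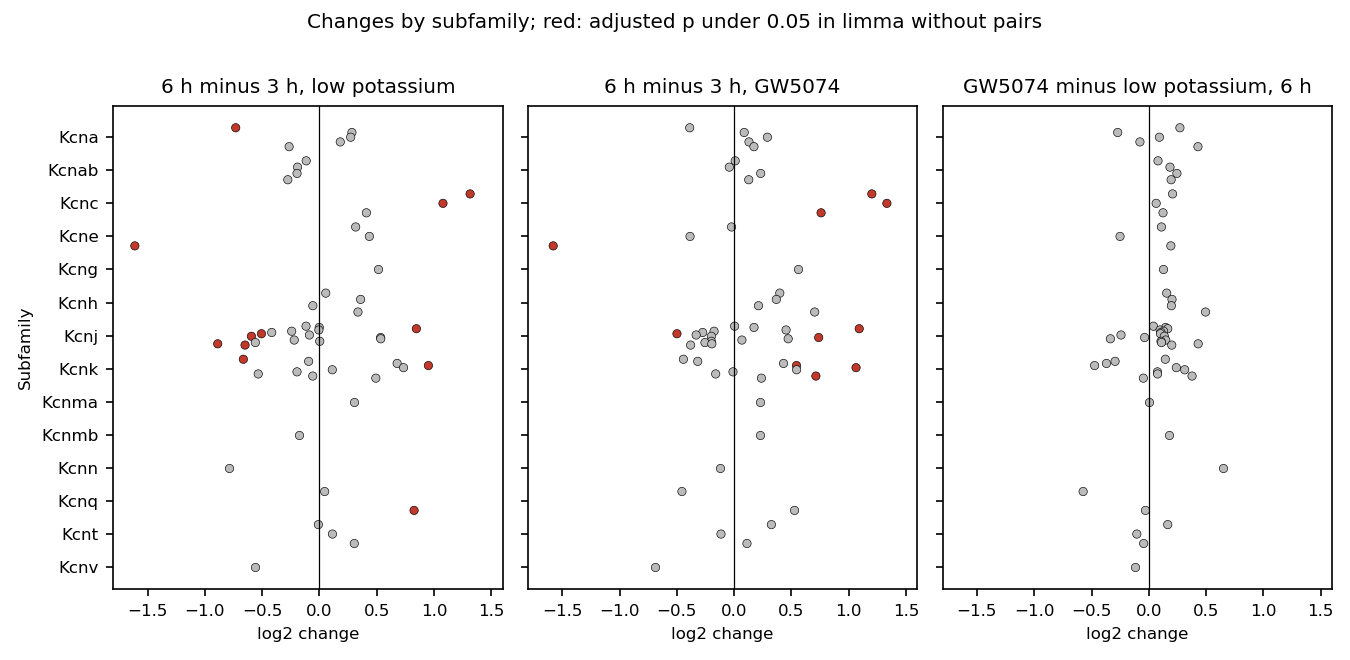
Log2 changes (horizontal axes) of the tested probe sets by subfamily (vertical axis) from 3 h to 6 h in low potassium (left), from 3 h to 6 h in GW5074 (middle) and for GW5074 minus low potassium at 6 h (right). Each point is a probe set, red where limma without pairs gave an adjusted p under 0.05: there are 12 red points at the left, 10 in the middle and 0 at the right.

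Inward rectifiers were the most numerous subfamily, with 15 genes, 26 probe sets and 16 probe sets tested for 9 genes. In low potassium 1 rose and 4 fell, where 11.6% of all tested probe sets rose and 11.0% fell. Of these 4 falls, 3 were probe sets of Kcnj11. In GW5074 2 rose and 1 fell, where 13.1% of all rose and 11.9% fell. The called genes belong to different branches: Kcnj3 and Kcnj6 are G-protein-gated channels that slow firing, Kcnj11 is the pore of the ATP-sensitive channel, and Kcnj12 is a strong rectifier that sets the resting potential.

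Kcnj6 read 346, 399 and 551 in LK at 3 h and 613, 760 and 1015 in LK at 6 h. In GW5074 it read 325, 359 and 539 at 3 h and 975, 734 and 952 at 6 h. No 6 h array fell into the range of the 3 h arrays. The rise was 1.80-fold in low potassium (log2 0.85, 0.38 to 1.31, adjusted p = 0.0141) and 2.13-fold in GW5074 (log2 1.09, 0.62 to 1.56, adjusted p = 0.00329). These values are from its brightest probe set, and its other 3, dimmer probe sets were not called, with changes of -0.22 to 0.54 in low potassium and 0.07 to 0.47 in GW5074. Without LK_3h A, LK_3h B or LK_6h C the adjusted p in low potassium was 0.0619, 0.0574 and 0.0713.

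Kcnj3, which assembles with Kcnj6, moved the other way on 1 of its 2 tested probe sets. This probe set read 169, 138 and 145 in LK at 3 h and 96.1, 136 and 91.7 in LK at 6 h, and 150, 169 and 168 against 121, 107 and 118 in GW5074. The times did not overlap in either treatment, with LK_6h B only just below the lowest 3 h array. It fell by 0.51 in low potassium (adjusted p = 0.0333) and by 0.50 in GW5074 (adjusted p = 0.0327).

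The Kcnj3 calls were the least firm of the 6. They ended on the scaled values without quantile normalisation (adjusted p = 0.0581 and 0.0571 in low potassium and GW5074), and with no filter (0.0595 and 0.0579). In low potassium they also ended without LK_3h A (0.116), LK_3h B (0.0618), LK_3h C (0.0582), LK_6h A (0.117) or LK_6h C (0.128), and in GW5074 without any 1 of the 6 GW5074 arrays (0.0601 to 0.106). The second, brighter probe set changed by -0.09 in low potassium and -0.33 in GW5074 and was not called. The other G-protein-gated genes were not called: Kcnj9 changed by -0.24 and -0.17, and Kcnj5 by -0.12 and 0.00.

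Kcnj11 fell in low potassium on all 3 of its probe sets. The probe set with the largest fall read 106, 90.6 and 97.8 in LK at 3 h and 38.7, 66.1 and 39.6 in LK at 6 h. In GW5074 the same probe set read 87.4, 83.6 and 71.0 at 3 h and 76.0, 80.9 and 50.4 at 6 h. The 3 h and 6 h arrays lay apart in low potassium and overlapped in GW5074. The fall in low potassium was 1.85-fold (log2 -0.89, -1.32 to -0.46, adjusted p = 0.00702).

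The other 2 Kcnj11 probe sets fell by 0.65 (adjusted p = 0.0179) and 0.59 (adjusted p = 0.0376) in low potassium. In GW5074 the 3 changes were -0.19, -0.38 and -0.20, with adjusted p of 0.515, 0.131 and 0.481. The difference between the treatments was 0.69 (0.09 to 1.30), 0.27 (-0.26 to 0.80) and 0.40 (-0.18 to 0.97), and none was called (adjusted p = 1.00 each, and 0.209, 0.635 and 0.552 in the fit that pairs arrays by letter). Probe sets of 1 gene share its RNA and are not replicates. In the RefSeq gene order Kcnj11 stands beside Abcc8, which encodes its sulfonylurea receptor partner. Abcc8 changed by 0.18 in low potassium (adjusted p = 0.441) and rose by 0.46 in GW5074 (adjusted p = 0.0494).

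**Figure D4:**
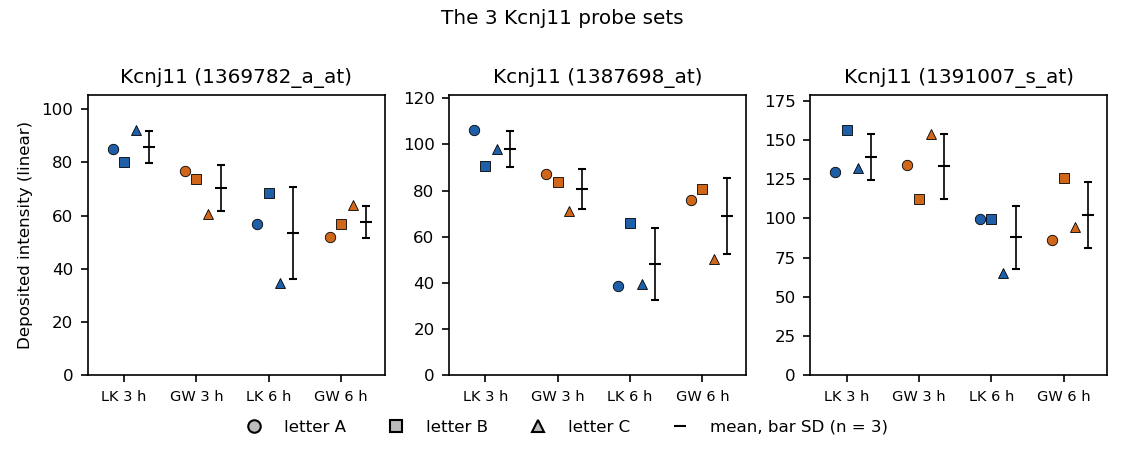
Deposited intensity (vertical axis, linear, from 0) of the 3 Kcnj11 probe sets in LK and GW at 3 h and 6 h, with points for arrays (circle, square and triangle for letters A, B and C) and bars for the mean and SD (n = 3). In all 3 panels the LK arrays at 6 h lie below the LK arrays at 3 h, while the GW arrays of the 2 times overlap.

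Kcnj12 read 31.9, 14.6 and 22.2 in GW at 3 h and 53.9, 33.8 and 51.1 in GW at 6 h, without overlap, and rose by 0.74 (adjusted p = 0.0403). In low potassium it read 27.3, 38.1 and 23.7 at 3 h and 50.3, 36.4 and 62.9 at 6 h, which overlapped, a change of 0.53 (adjusted p = 0.13). Its call ended with no filter (adjusted p = 0.0726) and without GW_3h B (0.16), GW_3h C (0.0876), GW_6h A (0.142), GW_6h C (0.121), LK_3h A (0.0508) or LK_6h A (0.0509). Kcnj4, a related strong rectifier, changed by -0.42 and -0.56 on its 2 probe sets in low potassium (adjusted p = 0.214 and 0.0951).

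Kcnj10 and Kcnj16, the rectifiers of astrocytes and other glia that clear extracellular potassium, did not pass the filter. Kcnj10 read 0.635 to 15.4 and Kcnj16 11.0 to 31.5 over the 12 arrays. Kcnj8, the second ATP-sensitive pore, was also too dim (2.60 to 27.6).

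Tandem-pore leak channels gave 10 tested probe sets for 8 of 11 genes. In low potassium 1 rose and 1 fell, where 11.6% of all tested probe sets rose and 11.0% fell. In GW5074 3 rose and none fell, where 13.1% of all rose and 11.9% fell. The medians were 0.03 and 0.34.

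Kcnk1, a weakly conducting leak channel of the TWIK branch, read 232, 221 and 278 in LK at 3 h and 610, 422 and 482 in LK at 6 h. In GW5074 it read 209, 253 and 232 at 3 h and 404, 367 and 321 at 6 h. All 6 h arrays were above all 3 h arrays in both treatments. It rose 1.93-fold in low potassium (log2 0.95, 0.61 to 1.30, adjusted p = 0.0016) and 1.46-fold in GW5074 (log2 0.54, 0.20 to 0.89, adjusted p = 0.024). In GW5074 the call ended without GW_3h A (adjusted p = 0.0888), GW_3h C (0.0521) or GW_6h A (0.102).

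Kcnk2, the mechano- and lipid-gated TREK channel of neurons, read 95.8, 73.7 and 46.7 in GW at 3 h and 179, 112 and 231 in GW at 6 h, and 66.8, 75.1 and 81.7 against 142, 121 and 155 in low potassium. Neither treatment had overlapping times. The rise was 2.09-fold in GW5074 (log2 1.06, 0.52 to 1.61, adjusted p = 0.00907), and the change in low potassium was 0.73 (0.19 to 1.28, adjusted p = 0.0525). Kcnk10, a second TREK gene, went down: 76.7, 60.1 and 40.9 in LK at 3 h against 35.7, 22.1 and 34.6 in LK at 6 h. Its fall of 0.66 was just past the threshold (adjusted p = 0.0427), its second probe set changed by -0.09, and in GW5074 the changes were -0.44 and -0.32.

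The Kcnk10 call ended with no filter (adjusted p = 0.083), without LK_3h A (0.162), LK_3h B (0.112), LK_6h A (0.0788), LK_6h B (0.12), LK_6h C (0.0608), GW_3h A (0.053), GW_3h B (0.0579) or GW_6h A (0.0538), and without both 6 h arrays of letter B (0.0962).

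Kcnk13, a leak channel closed by halothane, was called up in GW5074 and was not called in low potassium. The difference between the treatments, given below, was not called. It read 52.4, 48.3 and 101 in GW at 3 h and 120, 115 and 122 in GW at 6 h, and 85.6, 80.3 and 103 against 77.5, 101 and 86.3 in low potassium. The change was 0.71 in GW5074 (0.28 to 1.15, adjusted p = 0.0208) and -0.06 in low potassium (-0.49 to 0.38, adjusted p = 0.866). The call ended without GW_3h A (adjusted p = 0.0774), GW_3h B (0.102), GW_6h A (0.0657) or GW_6h C (0.0629).

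Kcnk3 and Kcnk9 encode the acid-sensitive TASK channels, which carry the standing outward current of granule neurons. Neither was called. Kcnk9 read 113, 53.6 and 33.6 in LK at 3 h and 116, 99.1 and 114 in LK at 6 h, a change of 0.68 (-0.08 to 1.44, adjusted p = 0.184) that ran from 1.07 (adjusted p = 0.0472) without LK_3h A to 0.37 (adjusted p = 0.506) without LK_3h C. In GW5074 it changed by 0.43 (adjusted p = 0.406), and by 0.74 (adjusted p = 0.142) without both 6 h arrays of letter B. The 2 Kcnk3 probe sets changed by -0.20 and 0.49 in low potassium and by -0.01 and 0.24 in GW5074, so they differed in sign. Without both 6 h arrays of letter B the brighter of them changed by -0.34 and -0.20.

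GW5074 against low potassium called no channel gene at 3 h. Limma without pairs called 0 of the 55 probe sets there, where 0% of all were called. No channel probe set had an unadjusted p under 0.05, where 1.64% of all did. The fit that pairs arrays by letter called 0 too (0.0161% of all), with 5 at an unadjusted p under 0.05 (6.54% of all). The median change was -0.07 beside -0.00 over all, with 19 above 0 and 36 below. The 95% intervals of 52 of the 55 lay within a change of 1 on the log2 scale in either direction, so for these a change of over 1 was outside the interval. With each gene taken by its brightest probe set, the 3 smallest p-values belonged to Kcnk13, at -0.39 (-0.83 to 0.04), Kcne2, at 0.45 (-0.13 to 1.02) and Kcnj13, an epithelial rectifier, at -0.36 (-0.83 to 0.12), each with an adjusted p of 1.00. The second Kcne2 probe set stood at 0.57 (-0.04 to 1.18). The 3 arrays of each treatment did not overlap for 7 probe sets (12.7%, against 7.06% of all).

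At 6 h the unpaired fit called 0 of the 55 probe sets (0% of all), with 3 (Kcnk1, Kcnq1 and the Kcnj11 probe set described above) at an unadjusted p under 0.05, where 4.81% of all were. The paired fit called 1, Kcnk1, where 1.87% of all were called, and 8 had an unadjusted p under 0.05 (16.3% of all). The median change was 0.11 beside 0.00 over all, with 40 above 0 and 15 below, and 50 of the 55 intervals lay within a change of 1. The treatments did not overlap for 5 probe sets (9.09%, against 9.69% of all).

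Kcnk1 was lower in GW5074 than in low potassium in each of the 3 pairs of 6 h arrays, at 404 against 610, 367 against 422 and 321 against 482. The mean was 364 ± 41.4 (SD, n = 3) in GW5074 and 505 ± 95.8 in low potassium, and the groups did not overlap. The log2 difference was -0.47 (-0.82 to -0.13), a 1.39-fold lower value, with an adjusted p of 0.943 without pairs and 0.0459 with pairs. In the paired fit the adjusted p was 0.317 without the 6 h pair A, 0.0331 without pair B and 0.175 without pair C, and 0.0627, 0.054 and 0.0535 without the 3 h pairs A, B and C. The call held with the 6 h pair B left out and with no other pair left out. At 3 h its difference was -0.07 (-0.41 to 0.28), within the spread.

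Kcnq1, a slow voltage-gated channel best known from heart and inner ear, averaged 45.9 ± 13.0 in LK and 24.0 ± 3.67 in GW at 6 h. The lowest LK array (34.4) was above the highest GW array (26.9), and the difference of -0.57 (-1.02 to -0.12) was not called (adjusted p = 0.977 without pairs and 0.158 with pairs). Kcnk13 read 77.5, 101 and 86.3 in LK and 120, 115 and 122 in GW at 6 h, also without overlap, at 0.38 (adjusted p = 0.981 and 0.22). Of other genes chosen by name, Kcna1, Kcna2, Kcnh2, Kcnj6, Kcnj9, Kcnk9 and Kcnmb4 differed by -0.27, 0.09, 0.20, 0.17, 0.13, -0.37 and 0.17 at 6 h, none of them called. Leaving out arrays moved several of these small differences by over 1.5 times: over all alternatives Kcnk9 ran from -0.63 to -0.05, Kcna2 from 0.01 to 0.19, Kcnj6 from 0.00 to 0.35, Kcnj9 from 0.01 to 0.28 and Kcnmb4 from 0.08 to 0.27.

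**Figure D5:**
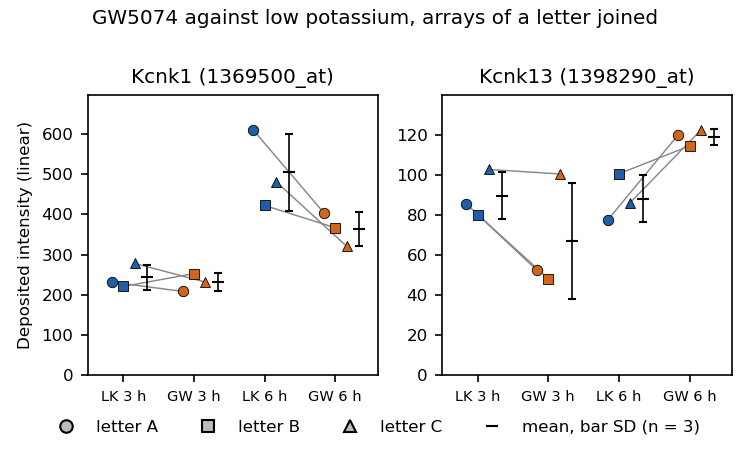
Deposited intensity (vertical axis, linear, from 0) of Kcnk1 (left) and Kcnk13 (right) in LK and GW at 3 h and 6 h, with grey lines joining arrays of a letter and bars for the mean and SD (n = 3). At 6 h all 3 lines of Kcnk1 go down from LK to GW, and all 3 lines of Kcnk13 go up.

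The effect of GW5074 at 6 h minus its effect at 3 h was called for no channel probe set. The unpaired fit had 2 of 55 at an unadjusted p under 0.05 (3.46% of all) and 0 adjusted (0% of all), and the paired fit had 8 (13.4% of all) and 0 adjusted (0.199% of all). The median difference was 0.15 beside 0.00 over all. Those 2 were Kcnk13, at 0.77 (0.16 to 1.39), with an adjusted p of 1.00 unpaired and 0.131 paired, and the Kcnj11 probe set given above. The GW5074 arrays of Kcnk13 were below their low-potassium partners in 3 of 3 pairs at 3 h and above them in 3 of 3 at 6 h. Kcnab2 followed at 0.43 (-0.01 to 0.86, paired adjusted p = 0.27), then the dimmer Kcne2 probe set at -0.82 (-1.69 to 0.04, paired adjusted p = 0.26) and Kcnk1 at -0.41 (-0.89 to 0.08, paired adjusted p = 0.289). Of the 55 intervals, 25 reached beyond a change of 1, as did 23 for time in low potassium. The median standard error was 0.313 here and 0.221 in each of the other comparisons, so this comparison resolves less than the others.

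Genes for proteins that bind or place potassium channels were followed as a list. This list and those that follow were chosen with earlier results of these data known. Their shares describe the lists and test nothing. Of 24 tested, 5 rose and 2 fell in low potassium (29.2%, against 22.6% of all), and 9 rose and 1 fell in GW5074 (41.7%, against 25.0%), with medians of 0.14 and 0.36. Cntnap2, which holds Kcna channels at the paranode border, changed by 0.61 in low potassium (adjusted p = 0.0262) and by 1.37 in GW5074 (adjusted p = 3.03e-04). Lgi1, a secreted protein that slows Kcna channel inactivation, rose by 0.83 in each (adjusted p = 0.0184 and 0.0169), and Vapb, a membrane protein, fell by 0.94 and 0.91 (adjusted p = 0.00955 and 0.0105). At 6 h the unpaired fit called none of the 24 for GW5074. The paired fit called 1, where 1.87% of all tested probe sets were called. It was Dpp6, an A-type channel partner, at 0.34 (adjusted p = 0.0199). Paired calls in this list and those that follow were not rerun with pairs left out.

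The 7 A-type genes set aside by the rule include the Kcnip genes, which are also counted in the partner list above. Of the 7, 2 rose and 1 fell in low potassium (42.9%, against 22.6% of all) and 2 rose in GW5074 (28.6%, against 25.0%). Their medians were -0.07 and 0.36. Kcnd2, the main A-type pore of granule neurons, fell by 0.89 in low potassium (adjusted p = 0.0116), and Kcnd1 rose by 0.66 and 0.97. At 6 h the unpaired fit called none of the 7 for GW5074. The paired fit, which called 1.87% of all, called Kcnd2, at 0.48 (adjusted p = 0.0118), and Kcnd3, at 0.50 (adjusted p = 0.0259), higher in GW5074. Other potassium transport genes, for the sodium-potassium pump, the cation-chloride cotransporters and the HCN channels, had 9 tested: 4 rose and 2 fell in low potassium (66.7%, against 22.6% of all), 4 rose and 1 fell in GW5074 (55.6%, against 25.0%), with medians of 0.18 and 0.44. Slc12a5, the neuronal potassium-chloride exporter, rose by 1.50 and 1.96, and Atp1b2, a pump beta subunit, by 0.83 and 1.60. For GW5074 at 6 h the unpaired fit called none of these 9. The paired fit called 2, where 1.87% of all were called: Atp1b1 at 0.36 (adjusted p = 9.55e-04) and Atp1b2 at 0.48 (adjusted p = 0.00764).

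Some cell type markers also moved between 3 h and 6 h. Of 11 tested granule neuron markers, 4 rose in low potassium (36.4%, where 11.6% of all rose) and 10 in GW5074 (90.9%, where 13.1% rose), with medians of 0.44 and 0.85, and their summed intensity ran from 9017 to 11251 in LK and 8200 to 10236 in GW at 3 h and from 14209 to 16334 and 14856 to 18169 at 6 h. Gabra6, the receptor subunit that marks mature granule neurons, read at least 178 on every array. At 6 h the unpaired fit called no granule marker for GW5074. The paired fit, which called 1.87% of all, called 1, Slc17a7, higher in GW5074 by 0.42 (adjusted p = 0.0042). Gfap was the 1 called of 8 tested astrocyte markers (12.5%), up in both treatments. Of all tested probe sets, 22.6% were called in low potassium and 25.0% in GW5074. The summed astrocyte markers ran from 2645 to 3098 over all 3 h arrays and from 3592 to 5480 over all 6 h arrays. Without Gfap the sums ran from 2169 to 2741 at 3 h and from 1560 to 3026 at 6 h, and the median changes of the 8 markers were -0.03 in both treatments.

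The shares below stand beside 22.6% of all tested probe sets called in low potassium and 25.0% in GW5074. Of 7 oligodendrocyte lineage markers 1 fell in each treatment (14.3%), with sums of 2677 to 3982 at 3 h and 1891 to 2788 at 6 h. A sum weighs its brightest markers most, here and for the other cell types. Mbp averaged 2267 in LK and 2137 in GW at 3 h and 1560 and 1487 at 6 h. Olig1 went the other way, from 138 and 107 to 176 and 163. Of 8 Purkinje and GABAergic neuron markers 1 fell in low potassium (12.5%), and 1 rose and 2 fell in GW5074 (37.5%). Their sums ran from 2493 to 3164 at 3 h and from 2405 to 3315 at 6 h. None of 6 microglial (sums 407 to 863 at 3 h and 436 to 855 at 6 h) and none of 4 endothelial and fibroblast markers (238 to 460 and 265 to 437) was called. No marker on the table was listed at exactly 0, and the dimmest, among them Slc1a2 and Pecam1, did not pass the filter. In bulk RNA, fewer cells of a type and less RNA per cell cannot be told apart. The part of these marker shifts in the channel changes was not tested.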

How the data were processed

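The deposited values are 1 linear intensity per probe set and array (31099 probe sets, 57 of them controls), on a linear scale that the authors set per array, as the values show, to a common mean of 150 with 2% trimmed at each end. No source used here names the software or the scanner. The probe table gives 20826 probe sets 1 symbol, 436 several and 9780 none, and 20758 matched a RefSeq gene table by Entrez identifier. That table was used for names and gene order only.

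Intensities of the non-control probe sets were quantile-normalised between arrays, 16 was added and log2 taken. Probe sets with a mean log2 at or above the 40th percentile were tested (18625). Limma 3.58.1 in R 4.3.3 (lmFit, eBayes with trend, two-sided) used 4 group means over all 12 arrays with Benjamini-Hochberg adjustment over all tested probe sets. The number of arrays limits the precision. Scripts were tested on simulated data. Figures used Python 3.11.15 and matplotlib 3.10.9.

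A paired fit with the letter within time as a block was an alternative. The letters come from the titles. After removal of group means, the arrays of a letter correlated by 0.422, 0.21 and 0.542 at 3 h and 0.291, 0.651 and 0.573 at 6 h, so they were taken as pairs (residual degrees of freedom 8, and 4 paired). Other alternatives changed the scaling, the pseudocount, the filter and the trend, and left out each array. Leaving out both 6 h arrays of letter B, and single pairs from the paired fit, was chosen after seeing the data.

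Named genes were those called in a comparison, up to 12 by smallest p, or else the 3 with the smallest p, plus preset genes. Some preset genes are not reported here. Channel partners, A-type genes, potassium transport genes and cell type markers were followed as lists. For genes of several probe sets, lists use the probe set with the highest mean. Members and lists were chosen with earlier results of these data known.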

Additional observations from a re-analysis of the deposited data

How the results depend on the processing

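The counts of channel probe sets called kept within 1.5 times of the reported count under other scalings, pseudocounts and filters and without the variance trend (9 to 12 in low potassium and 8 to 10 in GW5074 for time). Leaving out 1 array gave 4 to 16 calls in low potassium and 5 to 10 in GW5074, and 0 for every comparison of GW5074 without pairs. The cause of these changes in count was not tested, and they are given without the shares of all probe sets called in the same refits. With the replicate block the count for GW5074 minus low potassium at 6 h was 1 (Kcnk1). It stayed 1 with the 6 h pair B left out and was 0 with any other pair left out. The block changed no other call of a channel probe set. Of the single changes recomputed, 1087 kept direction and side of the threshold, 67 lost the threshold, 4 gained it and 25 turned sign.

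Those that turned were small changes, none called in any of these fits. From 3 h to 6 h in GW5074, leaving out 1 array gave -0.054 to 0.29 for Kcna1, -0.20 to 0.098 for Kcnk3, -0.038 to 0.41 for Kcnmb4 and -0.15 to 0.18 for Kcne2, and in low potassium -0.34 to 0.0053 for Kcnk3. For GW5074 minus low potassium at 6 h it gave -0.16 to 0.53 for Kcnc1, -0.59 to 0.046 for the brighter Kcnj3 probe set, -0.13 to 0.22 for Kcnk3, -0.32 to 0.25 for Kcnma1 and -0.094 to 0.37 for Kcne2. Without both 6 h arrays of letter B, Kcna1 in GW5074 was -0.017, and at 6 h Kcnj3 was 0.093 and Kcne2 -0.0239. Without quantile normalisation Kcnk3 in GW5074 was 0.067 and Kcnma1 at 6 h was -0.047, and a pseudocount of 64 gave -0.0137 for Kcnma1.

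Calls that held in every alternative run were Kcne4 in both treatments, Kcna4, Kcnj11 (the probe set with the largest fall) and Kcnk1 in low potassium, and Kcnc2, Kcnj6 and Kcnk2 in GW5074. Apart from this, 28 of the 68 genes could not be tested, since none of their probe sets passed the filter. Without pairs, the median 95% interval reached 0.47 to each side on the log2 scale between 2 groups. For the change in effect between times it reached 0.67. These intervals are not adjusted for the number of tests, so changes larger than 0.47 could also go uncalled. An example is Kcnq1 at 6 h, at -0.57 (limma adjusted p = 0.977 without pairs).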

Other observations

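Kcnk12, a silent relative of Kcnk13 that is poorly active alone, was chosen for its values after they were seen. It read 303, 286 and 297 in LK and 239, 224 and 252 in GW at 3 h, and 172, 345 and 150 in LK and 187, 360 and 161 in GW at 6 h. At 6 h the letter B arrays of both treatments read above every 3 h array, while A and C were below every 3 h array. The change from 3 h to 6 h was -0.53 in low potassium and -0.16 in GW5074, neither called (adjusted p = 0.196 and 0.724). Kcnn1 in low potassium at 6 h was also highest on letter B (50.3, against 7.70 and 12.4), while Kcnc1 at 6 h was lowest on letter B in both treatments (229 in LK and 293 in GW).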
